A study of Mus musculus with 6 samples.

Results

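The 39 genes described here mark macrophages and monocytes, and were chosen by name: every probe set whose annotated symbol was exactly one of them was taken, and complement and MHC genes were left out. All 39 were on the array, on 67 of its 45037 probe sets that are not controls. A filter on dim signals left 33 of them to be tested, of 12428 named genes tested in all. RNA of mouse stria vascularis, the vascularised epithelium in the lateral wall of the cochlea, was taken at postnatal day 10 and hybridised to 6 Affymetrix arrays. There were 3 arrays of mice heterozygous for Slc26a4 (replicates 1, 3 and 5) and 3 of mice in which Slc26a4, the gene of the anion exchanger pendrin, was knocked out (replicates 2, 4 and 6). The labels give no strain, sex, kind of allele or number of animals behind an array, so p-values measure only the spread between these samples, which may be technical. The study compared the genotypes at an age before hearing begins. The control mice carried 1 working copy of the gene, and no wild-type array was analysed here.

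Macrophages of the stria vascularis lie along its capillaries, where they are known as perivascular resident macrophages, and macrophages elsewhere in the cochlea clear cell debris. Their growth and survival depend on the receptor Csf1r and its ligands Csf1 and Il34, and their identity on the transcription factor PU.1, the product of Spi1, which binds purine-rich DNA with the core letters GGAA at many myeloid promoters. Activating Fc receptors bind antibody and signal through the adaptor Fcer1g, and receptors such as Trem2 through the related adaptor Tyrobp, to the kinase Syk.

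Promoter sequence was searched for letters that contain the PU.1 core GGAA. The search was a planned description, and its relation to the signals was not tested. RefSeq windows of 300 bases (GRCm38.p6), from 250 before to 50 after an annotated start, were matched by symbol for 30 of the 39 genes. The letters GAGGAA, on either strand, occurred in a window of 18 of the 30 (60%) and of 31.3% of 27025 genes in the table. The longer GAGGAAGT, which contains GAGGAA, occurred in 4 of the 30 (13.3%) and in 3.69% of all genes. These 4 were Ctss, Cd53, Pf4 and F13a1. Within the 250 bases before the start alone, GAGGAA occurred in 16 of the 30 (53.3%) and in 25.9% of all genes. GAGGAAGT lay wholly within those bases in 1 of the 30 (3.33%) and in 2.79% of all genes. A gene with several annotated starts was counted if any of its windows held the letters, and such a match is a description of sequence, not a measured binding site. Cd68 is 1 of 4 tested genes of the list whose knockout values all lay above the heterozygous ones. The first 270 bases are printed for the windows of Cd68 and of 3 of the genes with the longer match. They run 5′ to 3′ on the gene's strand. The last 20 bases follow the start, and capitals mark GAGGAA or GAGGAAGT on either strand.
Cd68 (chr11:69666151-69666420, minus strand): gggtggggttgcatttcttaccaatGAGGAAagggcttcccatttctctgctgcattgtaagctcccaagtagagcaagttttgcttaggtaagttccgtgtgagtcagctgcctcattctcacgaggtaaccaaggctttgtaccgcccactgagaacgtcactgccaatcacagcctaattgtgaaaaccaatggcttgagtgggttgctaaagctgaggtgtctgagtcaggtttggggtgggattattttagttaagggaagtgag
Ctss (chr3:95526536-95526805, plus strand): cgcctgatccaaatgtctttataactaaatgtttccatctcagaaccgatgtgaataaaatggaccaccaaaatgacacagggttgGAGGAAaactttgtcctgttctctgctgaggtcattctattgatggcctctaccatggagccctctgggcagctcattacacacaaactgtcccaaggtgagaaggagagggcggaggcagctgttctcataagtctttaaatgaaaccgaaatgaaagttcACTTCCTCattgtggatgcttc
Cd53 (chr3:106790130-106790399, minus strand): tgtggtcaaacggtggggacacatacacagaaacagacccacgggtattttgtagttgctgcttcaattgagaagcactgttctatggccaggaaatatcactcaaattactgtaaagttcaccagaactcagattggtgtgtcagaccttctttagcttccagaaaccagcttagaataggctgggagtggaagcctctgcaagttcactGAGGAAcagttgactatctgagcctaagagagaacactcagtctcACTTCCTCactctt
Pf4 (chr5:90772185-90772454, plus strand): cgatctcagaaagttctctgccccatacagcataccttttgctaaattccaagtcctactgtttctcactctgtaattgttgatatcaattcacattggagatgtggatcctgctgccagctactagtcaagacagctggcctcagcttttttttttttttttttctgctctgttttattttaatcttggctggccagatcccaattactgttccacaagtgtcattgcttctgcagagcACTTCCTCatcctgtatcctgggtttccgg
In Ctss, Cd53 and Pf4 the longer match lay on the opposite strand, close to the start. It began 2 bases before the start in Ctss, 10 bases before it in Pf4, and just after it in Cd53. A second, shorter match lay 164 bases before the start in Ctss and 39 before it in Cd53. In Cd68 the match shown lay 225 bases before the start.

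Values are signal intensities on a linear scale, each array having been scaled to the same trimmed mean of 500.002 before deposit. Slc26a4 itself was lower on each knockout array (75.5, 106 and 154) than on each heterozygous one (221, 248 and 1006). Its log2 difference was -1.69 (limma adjusted p = 0.370), and -1.02 without heterozygous replicate 5. Marker genes of the stria were measured on all arrays: 9 of 10 intermediate cell genes, 7 of 8 marginal cell genes and 4 of 4 basal cell genes passed the filter, with a median log2 difference of -0.09, -0.03 and 0.10. Knockout replicate 4 stood apart in its endothelial and granulocyte genes. Its median deviation from the heterozygous mean was -1.24 over 11 endothelial genes and -2.03 over 5 granulocyte genes, against -0.13 to 0.32 and -0.38 to 0.28 on the other knockout arrays. Its median signal over the array was 104.8, against 76.75 to 89.89 on the other arrays. The rule of this report set the comparison with and without this array, so the counts and the main genes below are given both ways.

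No macrophage or monocyte gene passed the test with all arrays. Differences are of log2(signal + 16), knockout minus heterozygous, and the test was limma with Benjamini-Hochberg adjustment over all 27022 probe sets tested, at a threshold of 0.05. The count was 0 of 33, where 0.00805% of all genes tested passed. The smallest limma adjusted p among the 33 was 0.390, for Stab1. At an unadjusted p under 0.05, 2 of 33 were higher (6.06%), Stab1 and Cd68, and 0 were lower, where 3.15% of all genes tested were higher and 3.20% lower. The median difference over the 33 genes was 0.05, with 20 higher and 13 lower, and it was -0.04 over all genes tested, of which 43.2% were higher. Centring each array on its median instead moved the median of all genes to -0.24 and left 9 of 33 macrophage genes higher, with a median of -0.15, so the split of signs depended on the scaling. In whole tissue RNA, a change in the number of macrophages and a change in RNA per macrophage cannot be told apart.

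Without knockout replicate 4 most of these genes had higher values in the knockout samples, although none passed the test. Of the 33, 29 were higher and 4 lower, with a median of 0.28, while all genes tested had a median of -0.0020 and 49.4% higher. At an unadjusted p under 0.05, 7 of 33 were higher (21.2%) and 0 lower, against 2.91% and 2.84% of all genes tested. The 7 were Lyz2, Cd14, Fcgr3, Stab1, Cd68, Ms4a7 and Fcgr2b. Still 0 of 33 passed after adjustment (smallest limma adjusted p = 0.463, for Lyz2), where 0.0805% of all genes did. These counts depended on the scaling. Centring each array on its median gave 22 of 33 higher, with 2 higher and 1 lower at an unadjusted limma p under 0.05. The median was then 0.14, and -0.14 over all genes tested. Quantile normalisation gave 25 higher, with 5 higher and 0 lower at that p. The direction also rested on knockout replicate 2: without that array 10 of 33 genes were higher and the median was -0.12. Of the 6 medians obtained by leaving out 1 array, these were the lowest (without knockout replicate 2) and the highest (without knockout replicate 4).

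**Figure D1:**
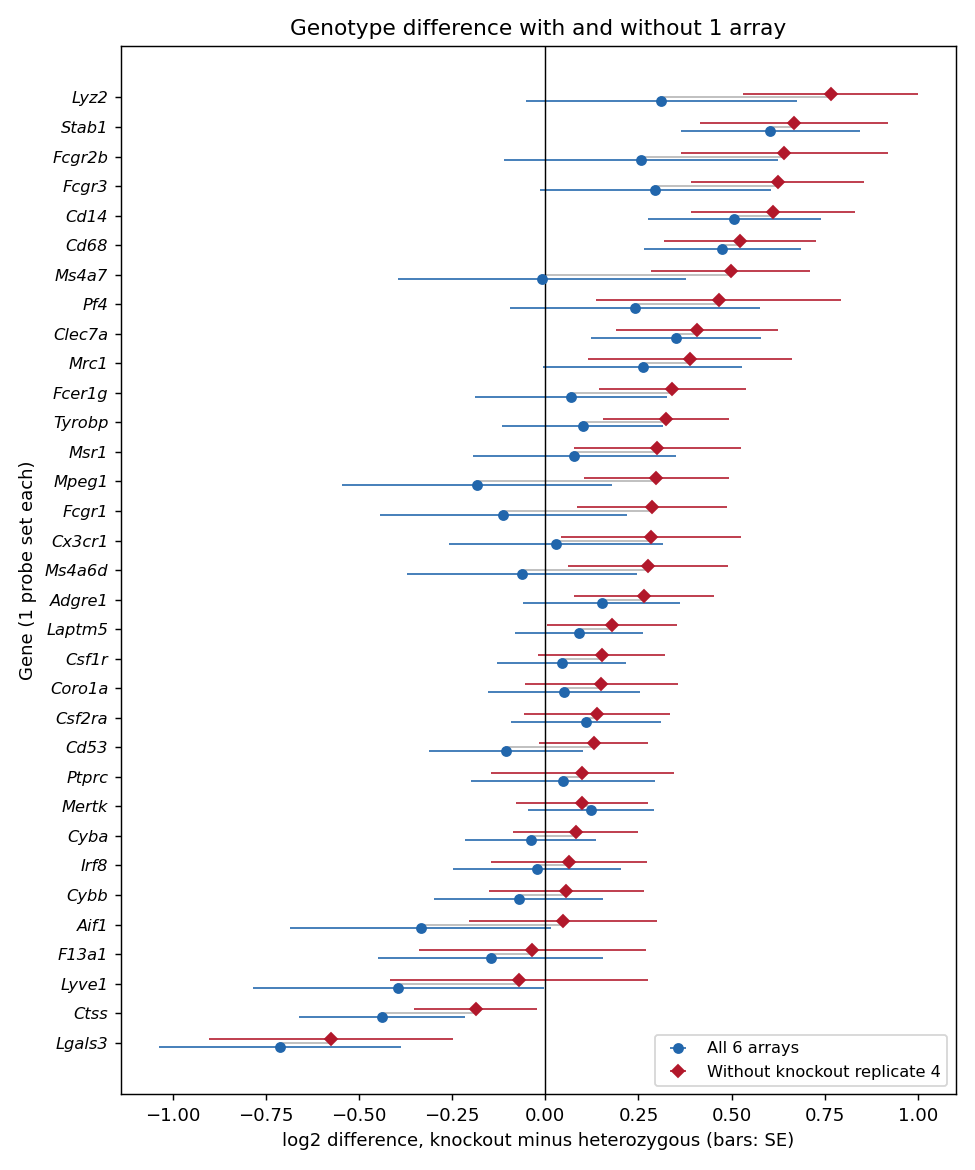
log2 difference between knockout and heterozygous arrays for each of 33 macrophage and monocyte genes (1 probe set a gene), with all 6 arrays (circles) and without knockout replicate 4 (diamonds); bars are standard errors. The median moves from 0.05 to 0.28, and Lyz2, Ms4a7 and Mpeg1 move furthest to the right, while Lgals3, Ctss, Lyve1 and F13a1 are below 0 in both.

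In summed signal the 3 knockout arrays spanned a wider range than the 3 heterozygous arrays. Knockout replicate 2 was the highest of the 6 arrays for 22 of the 33 genes (66.7%, against 18.5% of all genes tested). Knockout replicate 4 was the lowest for 21 (63.6%, against 36.2%), was the highest for 0, and lay under the mean of the other knockout arrays for 32 (97.0%, against 57.9%), Mertk being the exception. Heterozygous replicate 1 was the lowest for 7. Summed over the 33 genes, the signal was 17755, 22782 and 22222 on the heterozygous arrays and 25850, 15844 and 21862 on knockout replicates 2, 4 and 6. The knockout range thus enclosed the heterozygous one. Across the 6 arrays a gene's Pearson correlation with the mean of the other 32 had a median of 0.75, and it passed 0.7 for 19 of the 33 genes. It was 0.985 for Fcer1g and 0.976 for Tyrobp, the adaptor pair, and lowest for Lgals3 (0.043) and Mertk (-0.12). These correlations describe 6 libraries that share the scaling and the spread of knockout replicates 2 and 4.

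**Figure D2:**
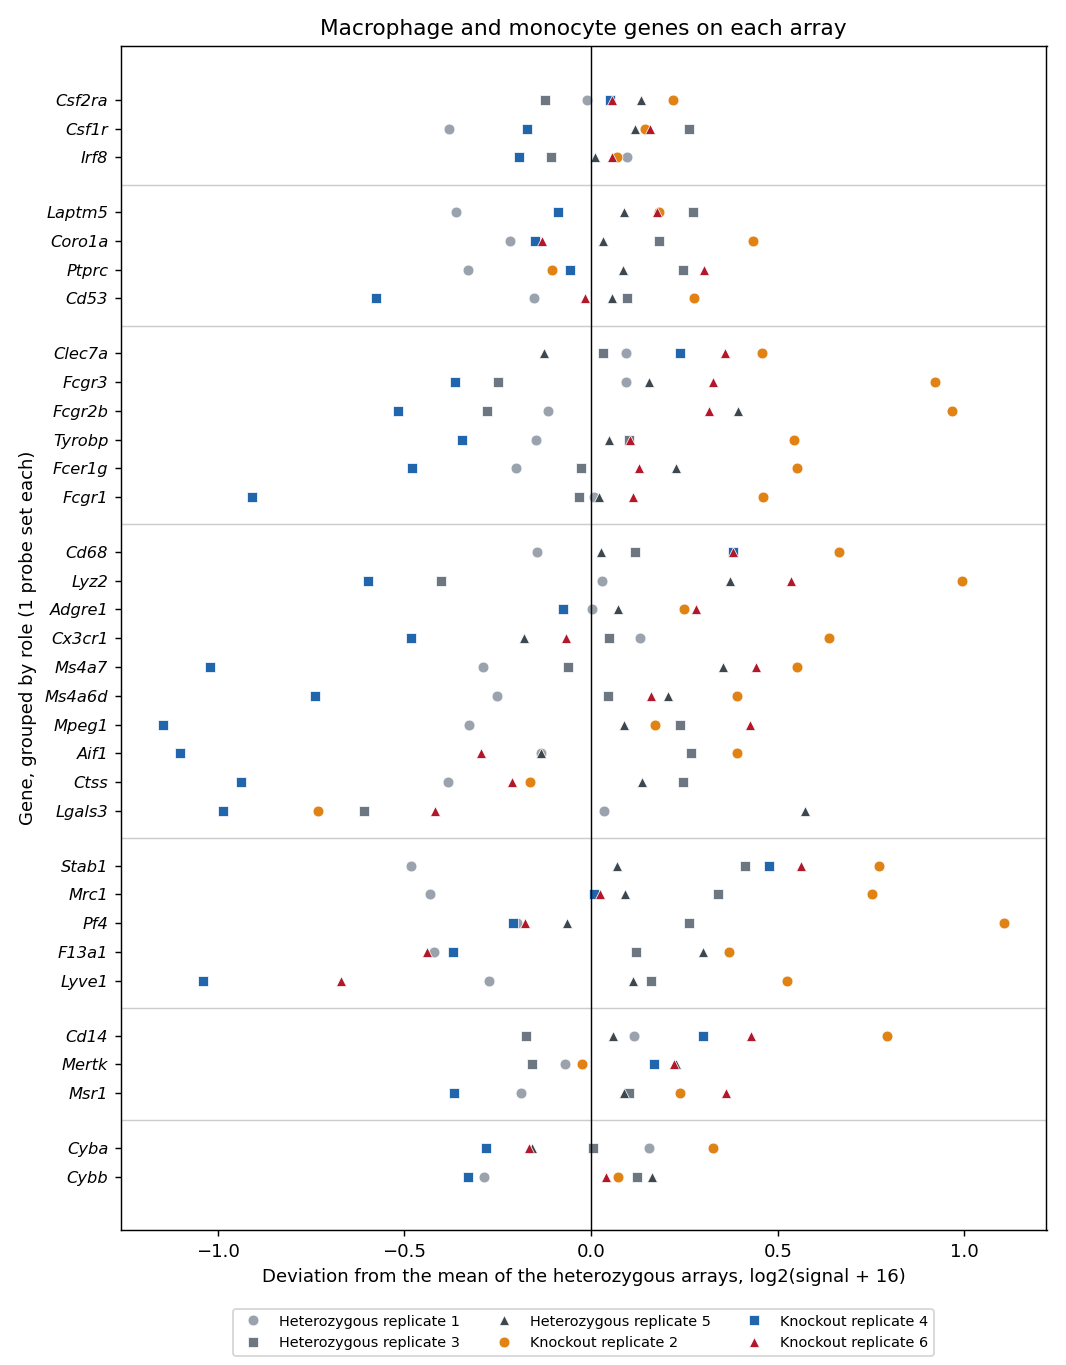
Deviation of each of 33 genes from its mean on the heterozygous arrays, on the log2(signal + 16) scale, for the 6 arrays; genes are grouped by role, from lineage genes at the top to oxidase subunits at the bottom. Knockout replicate 2 (orange circles) is the highest array for 22 genes and knockout replicate 4 (blue squares) the lowest for 21.

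Among 10 macrophage identity and lysosome genes, Cd68 was higher on every knockout array. Cd68, a glycoprotein of macrophage lysosomes, gave 153, 186 and 174 on the heterozygous arrays and 279, 227 and 227 on knockout replicates 2, 4 and 6. The lowest knockout value was above the highest heterozygous one. The log2 difference was 0.48 ± 0.21 (SE) and did not pass (limma adjusted p = 0.423), and an exact two-sided permutation test gave 0.1, the smallest p that 3 against 3 samples allow. It was 0.52 without knockout replicate 4. Over all 33 genes the genotypes did not overlap in 4, Cd68, Cd14, Stab1 and Clec7a, all with the knockout higher (12.1%, against 6.05% of all genes tested). The number with the knockout lower was 0 (against 7.03%). Without knockout replicate 4 these counts were 11 higher (33.3%, against 9.83% of all genes tested) and 0 lower (against 9.93%).

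In the other 9 genes of this group knockout replicate 4 was the lowest array, and its median gap to the mean of the other knockout arrays was -0.89 over the 10 genes on the log2 scale. Ms4a7, a tetraspanning membrane protein of macrophages, gave 339, 400 and 539 on the heterozygous arrays and 621, 198 and 575 on knockout replicates 2, 4 and 6. Mpeg1, the pore-forming perforin-2 of macrophages, gave 617, 921 and 829 against 878, 343 and 1050. Lyz2, the lysozyme of myeloid cells, gave 754, 556 and 961 against 1487, 483 and 1079. In each, knockout replicate 4 was the lowest of all arrays and another knockout array the highest. Their log2 differences were -0.01, -0.18 and 0.31 with all arrays and 0.50, 0.30 and 0.77 without that array. For Lyz2 the difference without it had a standard error of 0.23 and an unadjusted p of 0.00877 in limma. Aif1, the actin-binding protein Iba1, gave 198, 267 and 198 against 292, 93.4 and 175, and its difference of -0.33 became 0.05 without knockout replicate 4. Knockout replicate 2 was again the highest array and knockout replicate 4 the lowest. Adgre1, the F4/80 antigen, Cx3cr1, the fractalkine receptor, and Ms4a6d, a relative of Ms4a7, had differences of 0.15, 0.03 and -0.06, which became 0.27, 0.28 and 0.28.

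Ctss and Lgals3 lay on the other side in both fits. Ctss, a cathepsin that cleaves the invariant chain bound to MHC class II, gave 2885, 4477 and 4147 on heterozygous arrays. It gave 3367, 1960 and 3253 on knockout arrays. Its log2 difference was -0.44 ± 0.22 (SE) with all arrays and -0.19 without knockout replicate 4, and the groups overlapped. Lgals3, the galectin of macrophages that epithelia also make, gave 127, 75.5 and 191 against 67.9, 54.3 and 88.3. Its difference of -0.71 ± 0.32 (SE) did not pass (limma adjusted p = 0.437) and was -0.58 without knockout replicate 4. Heterozygous replicate 3 lay inside the knockout range. Of the 33 genes, Lgals3 had the largest difference of either sign with all arrays.

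The group of Fc receptors, adaptors and Clec7a had 6 genes tested, all higher without knockout replicate 4, and that array was the lowest for 5. Fcgr3, a low-affinity activating receptor, gave 287, 223 and 301 on heterozygous arrays and 522, 205 and 340 on knockout replicates 2, 4 and 6. Fcgr1, the high-affinity receptor, gave 179, 174 and 181 against 251, 87.4 and 194. The heterozygous values of Fcgr1 spanned a narrow range, and the knockout arrays lay on both sides of it. Fcgr2b, the inhibitory receptor, gave 115, 101 and 170 against 261, 82.9 and 160. Log2 differences with all arrays were 0.29 for Fcgr3, -0.11 for Fcgr1 and 0.26 for Fcgr2b, and without knockout replicate 4 they were 0.62, 0.29 and 0.64. The other tested probe sets of Fcgr2b gave 0.0037 and -0.21 with all arrays, and 0.29 and 0.11 without knockout replicate 4. Their unadjusted limma p without that array was 0.239 and 0.651. The genes of these receptors are closely related in sequence, so signal between them may be shared.

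In the signalling adaptors knockout replicate 2 was again the highest array and knockout replicate 4 the lowest. Fcer1g gave 527, 597 and 716 on heterozygous arrays and 900, 433 and 668 on knockout replicates 2, 4 and 6. Tyrobp, the adaptor DAP12, gave 925, 1102 and 1061 against 1504, 804 and 1104. Their differences of 0.07 and 0.10 became 0.34 and 0.32 without knockout replicate 4, and neither passed. Clec7a, the beta-glucan receptor dectin-1, was not lowest there: it gave 71.8, 68.2 and 59.4 against 97, 81.1 and 89.5. All 3 knockout values were above all heterozygous ones, with a log2 difference of 0.35 ± 0.23 (SE, limma adjusted p = 0.590) and an exact permutation p of 0.1. The difference was 0.41 without knockout replicate 4.

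Among the 5 tested genes of resident perivascular macrophages, Stab1 was the one whose groups did not overlap. Stab1, the scavenger receptor stabilin-1, gave 283, 539 and 421 on heterozygous arrays and 696, 564 and 600 on knockout replicates 2, 4 and 6. The log2 difference was 0.60 ± 0.24 (SE), with a limma adjusted p of 0.390 and an exact permutation p of 0.1. It was 0.67 without knockout replicate 4, 0.81 without heterozygous replicate 3 and 0.36 without heterozygous replicate 1. Stabilin-1 is also made by some endothelial cells, and 9 of the 11 endothelial genes tested were lowest on knockout replicate 4. On that array Stab1 lay above each heterozygous array and below the other knockout arrays. The part of endothelial cells in the Stab1 values was not tested.

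The other tested genes of that group were highest on knockout replicate 2. Mrc1, the mannose receptor, gave 365, 635 and 532 on heterozygous arrays and 850, 500 and 506 on knockout arrays. Pf4, a chemokine of platelets that these macrophages also make, gave 367, 512 and 404 against 932, 364 and 373. F13a1, a transglutaminase subunit, gave 84.2, 130 and 149 against 157, 87.7 and 82.9. In all 3 genes the groups overlapped, and for Pf4 and F13a1 knockout replicates 4 and 6 lay close to the lowest heterozygous value. Log2 differences were 0.26, 0.24 and -0.15 with all arrays, and 0.39, 0.47 and -0.03 without knockout replicate 4. Without knockout replicate 2 those of Pf4 and F13a1 were -0.19 and -0.40. Lyve1, a hyaluronan receptor shared with lymphatic endothelium, gave 44.1, 65.2 and 62.4 against 88.5, 19.3 and 29.6. It passed the filter only through its heterozygous values, and its difference was -0.39 ± 0.39 (SE), or -0.07 without knockout replicate 4. The other probe set of Lyve1 stayed under the filter and gave 32.7, 45.4 and 41.9 against 90.3, 20.9 and 47.8, a difference of 0.18.

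Of 3 genes for pattern recognition, scavenging and engulfment, Cd14 was higher on every knockout array. Cd14, the co-receptor for bacterial lipopolysaccharide, gave 126, 100.5 and 121 on heterozygous arrays and 212, 146 and 161 on knockout replicates 2, 4 and 6. Its groups did not overlap, and the log2 difference of 0.51 ± 0.23 (SE) had a limma adjusted p of 0.440 and an exact permutation p of 0.1. It was 0.61 ± 0.22 (SE) without knockout replicate 4. Mertk, a receptor kinase for the uptake of dying cells, gave 689, 647 and 852 against 712, 817 and 848, with overlapping groups and a difference of 0.12, or 0.10 without knockout replicate 4. Msr1, the class A scavenger receptor, gave 56, 72 and 71.2 against 80.9, 47.7 and 89.6, and its difference of 0.08 became 0.30 without knockout replicate 4.

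**Figure D3:**
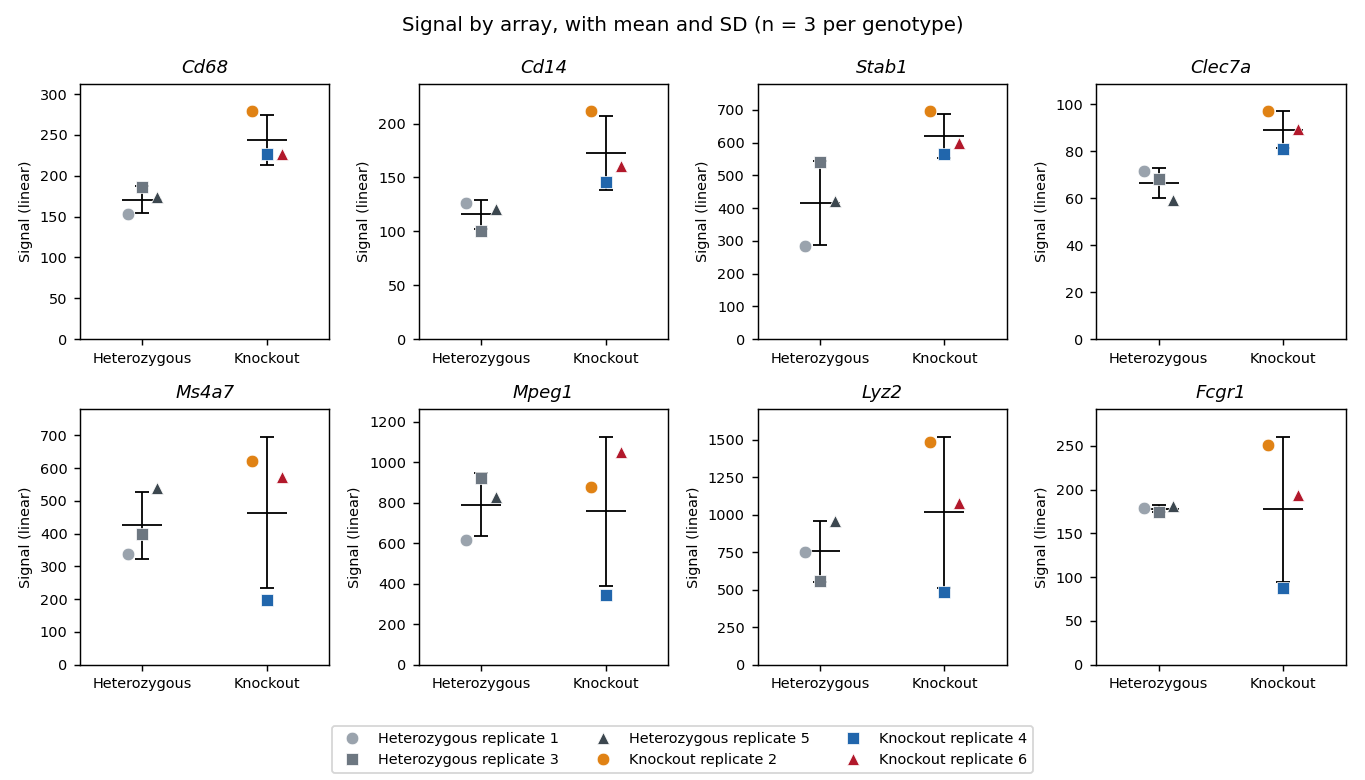
Signal (linear axis from 0) of 8 genes on each array, with the mean and SD of 3 arrays per genotype. In the upper row (Cd68, Cd14, Stab1 and Clec7a) every knockout array lies above every heterozygous one; in the lower row (Ms4a7, Mpeg1, Lyz2 and Fcgr1) knockout replicate 4 (blue squares) is the lowest array.

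For the 9 lineage genes, pan-leukocyte genes and oxidase subunits tested, the log2 difference lay between -0.11 and 0.11 with all arrays and between 0.06 and 0.18 without knockout replicate 4. Csf1r gave 2071, 3241 and 2929 on heterozygous arrays and 2986, 2395 and 3014 on knockout arrays, a log2 difference of 0.04 with a 95% confidence interval of -0.34 to 0.43. Its other probe sets gave 0.0016 and 0.05 with all arrays, and 0.32 and 0.42 without knockout replicate 4, where the first gave 0.15. Irf8, a transcription factor of monocyte development, differed by -0.02 (0.19 in its other tested probe set), and Csf2ra, a subunit of the GM-CSF receptor, by 0.11. Ptprc, the leukocyte phosphatase CD45, gave 110, 171 and 152 against 131, 136 and 179, a difference of 0.05. Knockout replicate 4 was not low for Ptprc, whereas Cd53, a leukocyte tetraspanin, gave 1310, 1561 and 1519 against 1771, 973 and 1442. Laptm5, a lysosomal protein of blood cells, differed by 0.09, and Coro1a, a leukocyte actin regulator, by 0.05. Cybb and Cyba, the membrane subunits of the phagocyte NADPH oxidase, gave -0.07 and -0.04.

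Itgam, Cd163, Trem2, Spi1, Folr2 and Itgb2 were not tested, since all of their probe sets stayed under the filter, which stood at a signal of 43.9. Spi1 lay between 23.7 and 40.1 on heterozygous arrays and at 31.2 or above on knockout arrays, with knockout replicate 6 the highest. Itgb2, the beta subunit of leukocyte integrins, gave 19.9, 34.9 and 58.3 against 57.0, 31.9 and 58.8. In both genes the genotypes overlapped. Itgam, the CD11b partner of Itgb2, lay between 2.36 and 17.9 on all arrays. Cd163, the haemoglobin scavenger receptor, gave 13.7, 21.4 and 94.3 against 7.45, 8.83 and 11.3, so its groups did not overlap, with heterozygous replicate 5 far above the other arrays. The remaining genes are Trem2, a lipid-sensing receptor, and Folr2, a folate receptor of resident macrophages, whose values were at most 85.4 and 58.8.

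The genes around these cells were taken from 6 further lists with 75 genes, and 0 of the 47 tested passed after adjustment. For growth factors and chemokines, 1 of 9 tested was higher at an unadjusted p under 0.05, against 3.15% of all genes tested. This was Ccl9, a chemokine for myeloid cells, which gave 43.9, 55.9 and 68.6 on heterozygous arrays and 140, 65.7 and 102 on knockout arrays (log2 difference 0.68, limma adjusted p = 0.418). The groups overlapped, and the difference was 0.93 without knockout replicate 4. Csf1, the ligand of Csf1r, gave 196, 186 and 172 against 262, 256 and 213, so its groups did not overlap, with a log2 difference of 0.37 ± 0.20 (SE, limma adjusted p = 0.518). The other tested probe set of Csf1 gave 0.04. Knockout replicate 4 lay between the other knockout arrays in Csf1 and was the lowest of them in Ccl9.

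Of 9 myeloid transcription factors, 1 was higher at an unadjusted p under 0.05, against 3.15% of all genes tested. This was Cebpa, which drives granulocyte and monocyte development and is also made outside blood cells. It gave 424, 444 and 551 against 639, 609 and 683 with no overlap (log2 difference 0.44, limma adjusted p = 0.391). Nr1h3, a sterol receptor, had 0.31. Among 10 receptors, C3ar1, the receptor for the complement fragment C3a, had 0.49 and Tlr4, the lipopolysaccharide receptor, -0.51, which was -0.14 without knockout replicate 4. Averaged over their tested probe sets, C3ar1 had 0.25 and Tlr4 -0.38 with all arrays. In Syk signalling, Vav1 and Btk had -0.41 and 0.23 (7 genes tested), and among oxidase partners Ncf4 and Rac2 had 0.30 and 0.21 (3 tested). In engulfment and lipid handling, 8 of 9 tested were lower, against 56.8% of all genes tested. Mfge8, a bridge between dying cells and phagocytes, had -0.41 and Lpl, lipoprotein lipase, -0.39. Without knockout replicate 4, 6 of the 9 were higher, against 49.4% of all genes tested. The list medians were 0.06 for growth factors, 0.05 for receptors, -0.02 for transcription factors, -0.0060 for Syk signalling, 0.21 for oxidase partners and -0.13 for engulfment. Without knockout replicate 4 they were 0.33, 0.18, 0.15, 0.20, 0.31 and 0.03.

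Markers of some other cells were also low on knockout replicate 4. On knockout replicate 4 the median deviation was -0.35 for the 33 macrophage genes, -0.43 for 7 microglia genes and -0.70 for 8 pericyte and smooth muscle genes, and it was 0.18 for 7 marginal cell genes. Endothelial genes summed to between 7292 and 12014 on heterozygous arrays and to 7569, 3726 and 10984 on knockout replicates 2, 4 and 6. Knockout replicate 4 was the lowest array for 9 of the 11. Granulocyte genes summed to between 1058 and 3747 against 1975, 325 and 1511. The high values of knockout replicate 2 in macrophage genes (0.39) were not seen in endothelial genes (-0.13). That array also had positive median deviations for osteoclast (0.90), bone and cartilage (0.53), granulocyte (0.28) and microglia (0.21) genes. They were negative there for pericyte and smooth muscle (-0.06), intermediate cell (-0.08) and marginal cell (-0.02) genes. Of 8 erythrocyte genes 2 passed the filter, with median deviations of -1.09, -0.50 and -0.05 on knockout replicates 2, 4 and 6. Of 12 lymphocyte genes 2 passed, with -0.37, -0.39 and -0.29, and of 6 platelet genes 1, Gp1bb, which was highest on knockout replicate 4. Of 8 dendritic cell genes 1 passed (Zbtb46), and of 7 mast cell genes 0. The part of granulocyte and vessel content in the macrophage values was not tested.

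Osteoclasts share the monocyte lineage and many of these genes. Of 10 osteoclast genes 4 passed the filter, and their summed signal was 749, 718 and 776 on heterozygous arrays and 1143, 956 and 2051 on knockout replicates 2, 4 and 6, so it did not overlap between genotypes. The sum includes Mmp9, which passed the filter only through its knockout values. Of the 4 genes, 3 were higher and 1 lower (-0.05), where 43.2% of all genes tested were higher. Ctsk, the collagen-cutting cathepsin of osteoclasts, gave 391, 290 and 316 against 685, 406 and 752. Mmp9, a metalloproteinase, gave 18.4, 20.4 and 59.9 against 89.9, 147 and 511, and neither passed (limma adjusted p = 0.370 for both). Bone and cartilage genes (7 tested) had median deviations of 0.53, 1.27 and 0.99 on knockout replicates 2, 4 and 6. The highest array for Mmp9 and Ctsk was knockout replicate 6, while 22 of the 33 macrophage genes were highest on knockout replicate 2. The part of osteoclasts in the values of Cd68, Cd14, Stab1 and Clec7a was not tested.

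**Figure D4:**
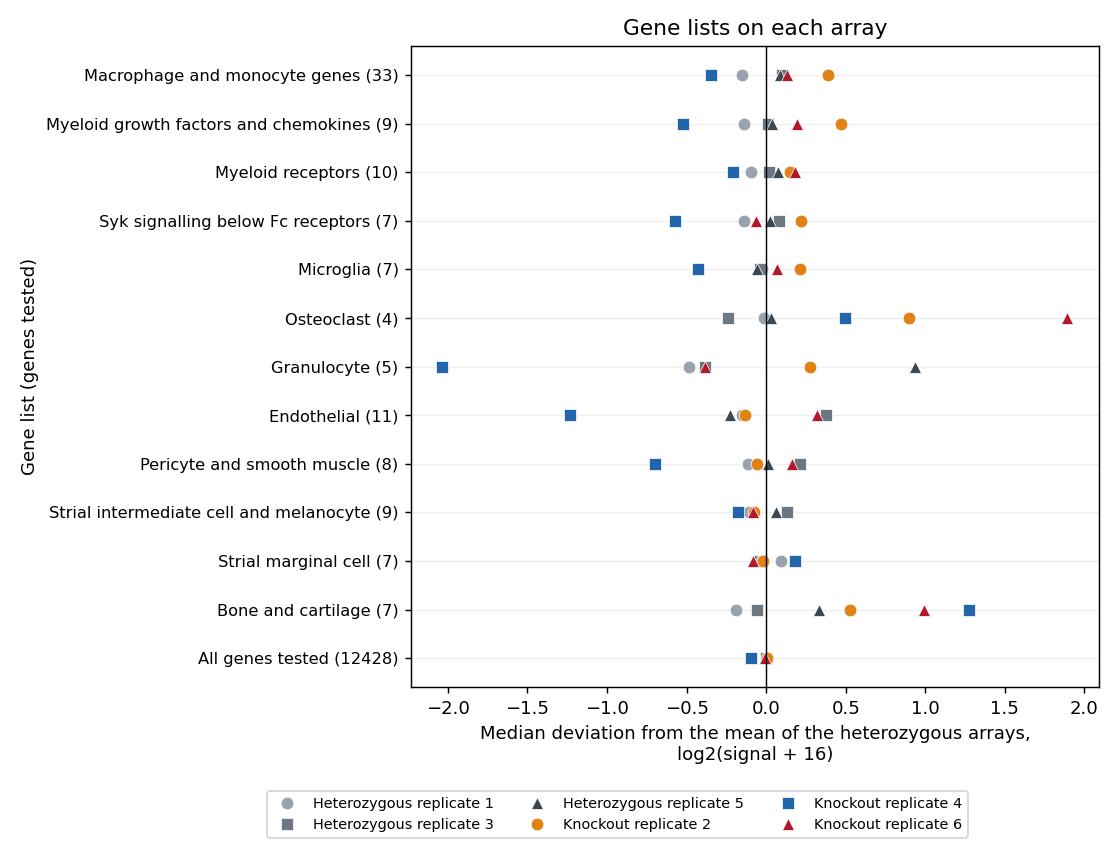
Median deviation from the heterozygous mean, on the log2(signal + 16) scale, of gene lists on each of the 6 arrays; the number of genes tested is in brackets. Knockout replicate 4 (blue squares) lies lowest for macrophage genes (-0.35), endothelial genes (-1.24) and granulocyte genes (-2.03). The osteoclast median lies above the heterozygous arrays on all 3 knockout arrays. It is over 4 genes, of which 1 was lower in the knockout, and includes Mmp9, which passed the filter only through its knockout values.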

How the data were processed

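Per the labels' protocols, a Qiagen kit gave total RNA of the stria vascularis, and a NuGEN method (Ovation) labelled it. As deposited, each value is the signal intensity of a probe set, on a linear scale. The submitters' processing notes name GCOS, the array software, and its version is not given in the sources used here. A trimmed mean (2% at either end) equal on all arrays shows that the authors' values were scaled before deposit, and no further scaling was applied. The number of arrays limits the precision.

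The 64 control probe sets were left out. Signals were taken as log2(signal + 16), which understates changes of dim genes, and probe sets under the 40th percentile of mean log2 signal were removed. Models were fitted by limma (version 3.58.1, R version 4.3.3) with lmFit and with eBayes using a variance trend, two-sided, and the script was tested on simulated data. Names came from the platform annotation (34945 probe sets with 1 symbol, 932 with several, 9160 with none). The probe set with the highest mean log2 signal stood for its gene. Figures used matplotlib 3.10.9 in Python 3.11.15.

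The members, lists and tests were chosen with earlier results of these data known. The rule for names took Slc26a4, the 39 genes, the 2 genes of smallest p in each pathway list and the 2 of highest mean signal in lists of other cells, of which a few are given. Mmp9 was named after its values were seen. Alternatives were other offsets, scalings, filters and variance models, array weights, averaging the probe sets of a gene, and leaving out each array.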

Additional observations from a re-analysis of the deposited data

How the results depend on the processing

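The number of macrophage and monocyte genes past the threshold was 0 under every alternative run, with and without knockout replicate 4. Single genes were followed through the alternatives to the fit with all arrays, leaving out each array included, and the lowest limma adjusted p of any of the 33 there was 0.22. In these alternatives 8 of the 33 kept the sign of their difference, 5 higher (Cd68, Cd14, Mrc1, Stab1 and Clec7a) and 3 lower (Lgals3, Ctss and Lyve1). The other 25 changed sign in at least 1, and the cause was not tested. Lyve1 passed the filter only through its heterozygous values, and its other probe set, which was not tested, had a difference of 0.18. The list's median lay between -0.15 and 0.15 in the fits that kept all 6 arrays, between -0.12 and 0.28 when 1 array was left out, and between 0.14 and 0.30 in the alternatives run without knockout replicate 4. Over the whole array, 1 probe set passed: this was 3 with quantile normalisation or median centring, 0 with no filter or with a filter at the 60th percentile, and 25 with array weights. Leaving out 1 array gave 0 to 13 probe sets, with 2 without heterozygous replicate 1, 3 without heterozygous replicate 3, 13 without knockout replicate 4 and 0 without any other. The 13 became 8 with an offset of 1, 7 with quantile normalisation, 6 with median centring, 0 with no filter, 2 with the 60th percentile filter and 1 with no variance trend. With an offset of 64 the difference changed sign for Ms4a7 (0.0076). With quantile normalisation the difference changed sign for Cx3cr1 (-0.083), Cyba (0.0022), Ptprc (-0.13), Csf2ra (-0.010) and Msr1 (-0.11). With median centring the difference changed sign for Adgre1 (-0.048), Csf1r (-0.16), Fcer1g (-0.13), Tyrobp (-0.099), Cx3cr1 (-0.17), Laptm5 (-0.11), Ptprc (-0.15), Coro1a (-0.15), Csf2ra (-0.091), Msr1 (-0.12) and Mertk (-0.077). With array weights the difference changed sign for Aif1 (0.0089), Fcgr1 (0.18), Mpeg1 (0.055), Cyba (0.15), Ms4a7 (0.21), Ms4a6d (0.10), Cd53 (0.047), Ptprc (-0.015) and Irf8 (0.044). With the mean over probe sets the difference changed sign for Irf8 (0.086). Leaving out 1 array at a time gave ranges of the difference that crossed 0: -0.15 to 0.18 for Csf1r, -0.17 to 0.34 for Fcer1g, -0.091 to 0.23 for Laptm5, -0.22 to 0.081 for Cyba and -0.12 to 0.17 for Ptprc. Further ranges were -0.14 to 0.15 for Coro1a, -0.075 to 0.063 for Irf8, -0.064 to 0.30 for Msr1, -0.28 to 0.28 for Cx3cr1 and -0.22 to 0.057 for Cybb. Others were -0.29 to 0.50 for Ms4a7, -0.29 to 0.28 for Ms4a6d, -0.40 to 0.0029 for F13a1, -0.019 to 0.62 for Fcgr3 and -0.10 to 0.64 for Fcgr2b. The next were -0.12 to 0.32 for Tyrobp, -0.030 to 0.77 for Lyz2, -0.19 to 0.47 for Pf4, -0.70 to 0.048 for Aif1 and -0.40 to 0.29 for Fcgr1. The last were -0.49 to 0.30 for Mpeg1 and -0.30 to 0.13 for Cd53. No paired analysis was possible because the genotypes share no replicate number. Dim signals limited Itgam, Cd163, Trem2, Spi1, Folr2 and Itgb2, which were not tested.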
